A study of Mus musculus with 18 samples.

Results

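Thyroids that had received 11.2 Gy from 211At within 24 h were compared directly with thyroids that had received 1.4 Gy, without the non-irradiated controls as a reference. 211At is an alpha-emitting halogen that accumulates in the thyroid and deposits its dose along short tracks in and around the tissue that holds it. Both groups were female mice labelled BALB/c, described in the methods as BALB/c nude mice aged 6 months, injected in the tail vein with 14 kBq for 11.2 Gy or 1.8 kBq for 1.4 Gy and killed 24 h later. Nude mice lack a normal thymus and have few mature T cells. The thyroids of a group were pooled before RNA extraction and the pool was run on 3 arrays, so that 6 of the 18 arrays of the series, 3 of 1 pool at 11.2 Gy and 3 of 1 pool at 1.4 Gy, entered the comparison. The spread given here is therefore that of the array measurement between 2 pools, and a p-value says nothing about variation between mice. The number of mice in each of the 6 groups (21 mice in all) is not given in the sources used here.

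All levels are log2 of the quantile-normalized fluorescence intensity of an Illumina MouseRef-8 probe, and ratios are 11.2 Gy over 1.4 Gy on that scale. A probe was kept where the detection p-value fell under 0.01 on all 3 arrays of either group. It was called where it changed 1.5-fold or more and limma's adjusted p was below 0.01. Between 10257 and 10571 probes were detected per array at 11.2 Gy, against 10582 to 11328 at 1.4 Gy, with median raw signals of 100.1 to 107.9 at 11.2 Gy and 89.8 to 115.3 at 1.4 Gy. Of 25697 probes, 10499 were kept. Of these, 1623 (15.5%) were called, 898 higher (8.55%) and 725 lower (6.91%) at 11.2 Gy, while scaling each array to its 75th percentile instead gave 613 higher and 1395 lower. In the main setting 55.3% of the calls were higher, against 30.5% with 75th-percentile scaling and 47% after background correction with neqc. The median ratio of all probes kept was −0.07, and 6410 probes had an unadjusted p under 0.05. The 3 values of 1 group lay all above the 3 of the other for 6413 probes (61.1%), with 11.2 Gy above in 24.9% and below in 36.2%, so that a lack of overlap alone sets no gene apart here.

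The largest differences were on the higher side. A change of at least 2-fold was found for 437 probes higher and 129 lower, of at least 4-fold for 139 higher and 3 lower, and of at least 8-fold for 48 higher and 0 lower. The called probes fell on 1160 named genes, 699 higher and 461 lower, out of 7475 genes with a kept probe. Some of these calls rest on the filter: 259 of the 898 higher probes were kept through the 11.2 Gy arrays alone, and 74 of the 725 lower probes through the 1.4 Gy arrays alone. Among the 8891 probes detected on all 6 arrays, 639 (7.19%) were called higher and 651 (7.32%) lower.

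**Figure D1:**
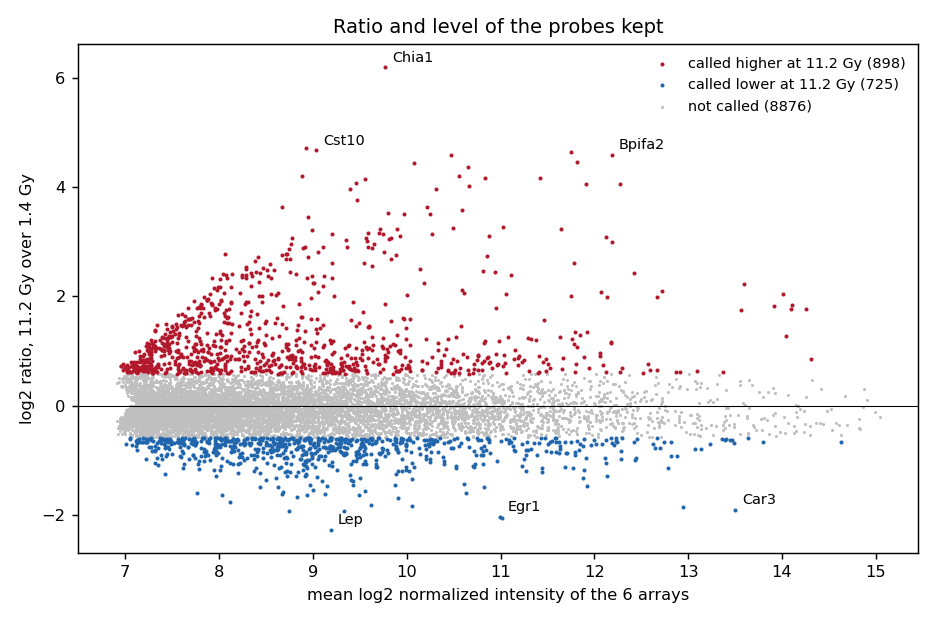
Log2 ratio of 11.2 Gy over 1.4 Gy (vertical axis) against the mean log2 normalized intensity of the 6 arrays (horizontal axis), with 1 point for each of the 10499 probes kept. The 898 probes called higher reach a ratio of 6.20 (Chia1), while the 725 called lower end at −2.27 (Lep).

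Defining genes of the thyroid follicle were not detected in either group. Tg, the gene of thyroglobulin, the protein on which thyroid hormone is made, had levels of 6.69, 6.74, and 6.59 at 11.2 Gy, against 6.64, 6.80, and 6.58 at 1.4 Gy. It was detected on 0 of these 6 arrays and on 0 of the 18 arrays of the series. Probes for Slc5a5, the sodium-iodide symporter, and Pax8, a transcription factor of follicular cells, were likewise detected on 0 of the 6 arrays. Of 19 follicular genes, 14 had a probe, 11 of them were detected on no array of either group, and 3 were kept. In pooled bulk tissue, fewer cells of a type and less RNA per cell cannot be told apart, which holds for every gene below.

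Slc5a8, a sodium-coupled carrier of monocarboxylates in the apical membrane of follicular and other epithelial cells, was the 1 follicular gene called higher. Its levels were 10.04, 10.14, and 10.11 at 11.2 Gy, against 7.34, 7.36, and 7.27 at 1.4 Gy (ratio 2.77 ± 0.07, SE, n = 3 arrays of 1 pool each, limma adjusted p = 5.04e-14). The arrays of the 2 groups lay far apart, at a level well above that of Tg. Tshr, the receptor of thyroid-stimulating hormone, which adipocytes also express, was detected on 0 arrays at 11.2 Gy and on 3 at 1.4 Gy, with means of 6.74 at 11.2 Gy and 7.35 at 1.4 Gy. It was at least 1.20-fold lower at 11.2 Gy (fitted ratio −0.61 ± 0.07, limma adjusted p = 5.40e-06), a call that was lost without the second 1.4 Gy array (−0.57), after joint normalization of all 18 arrays (−0.40), and with 75th-percentile scaling (−0.24), while a second probe gave −0.71. Here and below, such a bound sets the mean of the group that detected a probe against a floor for the other group, on each array the lowest signal among detected probes or the dim probe's own signal, whichever was higher. The remaining gene, Hhex, a homeobox factor, had a ratio of −0.18 and was not called.

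Among genes of thyroid hormone transport and action, 3 of 11 with a probe were kept. Urah, an enzyme of urate breakdown related in sequence to transthyretin, rose by 2.26 ± 0.08 (9.63, 9.50, and 9.53 at 11.2 Gy, against 7.27, 7.39, and 7.22 at 1.4 Gy). Thrsp, a thyroid hormone-responsive gene of lipid synthesis, had a ratio of −0.38 and Slc16a10, a carrier of aromatic amino acids and thyroid hormone, one of 0.11, and neither was called. Ttr, transthyretin, was detected on 1 array at 11.2 Gy and 0 at 1.4 Gy. Of the genes that mark C cells, Ret, a receptor tyrosine kinase, was the only 1 of 7 kept. It was at least 1.64-fold higher at 11.2 Gy, where its level was 7.75 against an undetected 6.81 at 1.4 Gy. Neither parathyroid gene with a probe was kept.

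Genes of salivary secretion made up the upper end of the ratios. The mouse submandibular gland stores a family of glandular kallikreins in its granular ducts, serine proteases that process growth factors such as Egf, whereas the parotid gland secretes digestive enzymes and a secretory protein of its own. All 13 submandibular kallikreins with a probe were called higher at 11.2 Gy, with ratios of 1.28 to 4.64 and a median of 4.05, beside a median of −0.07 over all probes kept. Of the 12 detected on all 6 arrays, 12 were called higher, where 7.19% of all such probes were. The summed intensity of the 13 genes was 183013 to 187685 over the arrays at 11.2 Gy, against 33835 to 35805 at 1.4 Gy.

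Klk1b11 had the highest ratio of the family, with levels of 14.18, 13.98, and 14.08 at 11.2 Gy, against 9.50, 9.37, and 9.44 at 1.4 Gy (ratio 4.64 ± 0.08, SE, n = 3 arrays of 1 pool each, limma adjusted p = 4.80e-16). Klk1b22, a kallikrein that binds Egf, had 14.03, 14.08, and 14.05 at 11.2 Gy, against 9.66, 9.57, and 9.54 at 1.4 Gy (ratio 4.46 ± 0.07). Klk1b26 had 14.30, 14.32, and 14.28 at 11.2 Gy, against 10.15, 10.26, and 10.30 at 1.4 Gy (ratio 4.06 ± 0.08). In each of the 3 genes, every array at 11.2 Gy lay about 4 log2 units or more above every array at 1.4 Gy. The ratios of Klk1b8, Klk1b21, Klk1b24, and Egfbp2, a further Egf-binding kallikrein, were 4.17, 4.16, 4.09, and 4.05. The smallest ratios belonged to the 3 genes with the highest levels at 11.2 Gy, Klk1 (1.28, at 14.68 and 13.40), Klk1b27 (1.77, at 15.13 and 13.37), and Klk1b5 (1.82, at 14.83 and 13.01, each time 11.2 Gy before 1.4 Gy). At 11.2 Gy these 3 probes lay near the top of the intensity range, where a difference may not show in full. A second, dimmer probe of Klk1b27 gave 4.37 and one of Klk1b5 gave 3.64, so that probes of the same gene differed by more than 1.8 log2 units. These genes are close copies of each other, and whether a probe of one also bound mRNA of another was not tested.

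The copies resemble each other in their promoters too, which are shown because the family moved as a group. In the RefSeq promoter table (GRCm38.p6), 12 of the 13 genes had an entry. The letters TTTAAA occurred within the 250 bases before the start, on either strand (the motif is its own reverse complement), in 10 of these 12, and in 12.1% of all 32851 promoters. The stretches below run 5′ to 3′ on the plus strand, with this box in capitals, from 30 bases before it to 10 bases after it.
Klk1b11, chr7:43995807-43995852: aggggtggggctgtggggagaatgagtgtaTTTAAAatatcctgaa
Klk1b22, chr7:44112603-44112648: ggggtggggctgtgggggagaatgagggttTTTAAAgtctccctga
Klk1b8, chr7:43950592-43950637: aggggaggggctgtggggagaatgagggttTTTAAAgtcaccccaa
Klk1b26, chr7:44012622-44012667: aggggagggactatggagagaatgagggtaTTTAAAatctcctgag
Klk1b27, chr7:44052243-44052288: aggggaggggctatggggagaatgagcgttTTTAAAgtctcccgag
Klk1b5, chr7:44216402-44216447: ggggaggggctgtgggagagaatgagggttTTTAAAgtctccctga
Aligned on the box without gaps, Klk1b22 and Klk1b5 shared 44 of 46 bases, and Klk1b11 and Klk1b5 shared 30 of 46. The given probes of Klk1b22 and Klk1b5 had ratios of 4.46 and 1.82, but the dimmer probe of Klk1b5 had a higher ratio, as given above. The run agaatgag stood before the box in all 6 stretches.

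Other submandibular proteins moved in both directions. Of 17 genes of growth factors, mucins, and urinary proteins with a probe, 12 were kept, 6 were called higher, and 1 was called lower. Of the 9 detected on all 6 arrays, 4 were higher and 1 was lower, beside 7.19% and 7.32% of all probes so detected. Egf, epidermal growth factor, a product of the same granular ducts, had levels of 12.63, 12.67, and 12.65 at 11.2 Gy, against 8.43, 8.44, and 8.49 at 1.4 Gy, an 18.4-fold difference (SE of the log2 ratio 0.07). Lpo, the salivary peroxidase lactoperoxidase, had 10.52, 10.60, and 10.67 at 11.2 Gy, against 7.32, 7.40, and 7.45 at 1.4 Gy (ratio 3.21 ± 0.08). Both genes were detected on all 6 arrays, and the groups did not overlap, but the level of Lpo at 1.4 Gy was dim. Dcpp1, a demilune cell and parotid protein detected on no array at 1.4 Gy, was higher at 11.2 Gy by a factor of at least 11. Smr3a, a submaxillary androgen-regulated protein, was likewise at least 5.36-fold higher. Smgc and Mup5, a secreted mucin-like protein of the submandibular gland and a major urinary protein, rose by 1.84 and 1.75, with means of 15.03 and 14.44 at 11.2 Gy and 13.19 and 12.69 at 1.4 Gy. At 11.2 Gy, Smgc lay near the top of the intensity range, where a difference may not show in full.

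Mup2, another major urinary protein, went the other way. Its levels were 8.41, 8.90, and 8.81 at 11.2 Gy, against 10.72, 10.53, and 10.33 at 1.4 Gy (ratio −1.82 ± 0.12), and a second probe gave −0.78. Prol1, the mucin Muc10, Scgb1b27 and Scgb2b27, subunits of salivary androgen-binding proteins, and Pip, prolactin-inducible protein, had levels of 14.72 to 15.15 in either group and ratios of −0.21, −0.11, 0.10, and 0.30, none of them called. These 4 salivary proteins were thus at the top of the intensity range in both groups, with Prol1 at the same value on all 3 arrays of 1.4 Gy (SD 0), and a difference between the groups may not show there. The summed intensity of the 12 kept genes was 192336 to 196207 at 11.2 Gy, against 142887 to 147016 at 1.4 Gy.

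Proteins typical of the parotid gland and of digestive secretion showed the steepest single ratios. Chia1, an acidic chitinase, had levels of 12.92, 12.83, and 12.85 at 11.2 Gy, against 6.72, 6.72, and 6.56 at 1.4 Gy, where no array detected it. It was at least 57.1-fold higher at 11.2 Gy (fitted ratio 6.20 ± 0.08, SE, n = 3 arrays of 1 pool each, limma adjusted p = 2.60e-17), and a second probe gave 4.71. Cst10, a cystatin, had 11.44, 11.40, and 11.30 at 11.2 Gy and 6.66, 6.73, and 6.70 at 1.4 Gy. Dnase1, a secreted nuclease, had 11.03, 10.96, and 10.98 at 11.2 Gy and 6.91, 6.71, and 6.72 at 1.4 Gy. Both were detected on all arrays at 11.2 Gy and on none at 1.4 Gy, which puts them at least 20.4-fold and at least 15.5-fold higher. Bpifa2, the parotid secretory protein, was detected in both groups, with 14.53, 14.38, and 14.53 at 11.2 Gy, against 9.95, 9.74, and 9.97 at 1.4 Gy (ratio 4.59 ± 0.08). Amy1, salivary amylase, the other member detected on all 6 arrays, had the smallest ratio of the list, 0.77. Of 15 genes with a probe, 8 were kept and all 8 were called higher (7 with neqc or 75th-percentile scaling), but 6 of them had been kept through the 11.2 Gy arrays alone, a filter that favours a difference. The share called higher over all kept probes was 8.55%. The summed intensity of the 8 genes was 36172 to 39044 at 11.2 Gy, against 2888 to 2913 at 1.4 Gy.

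**Figure D2:**
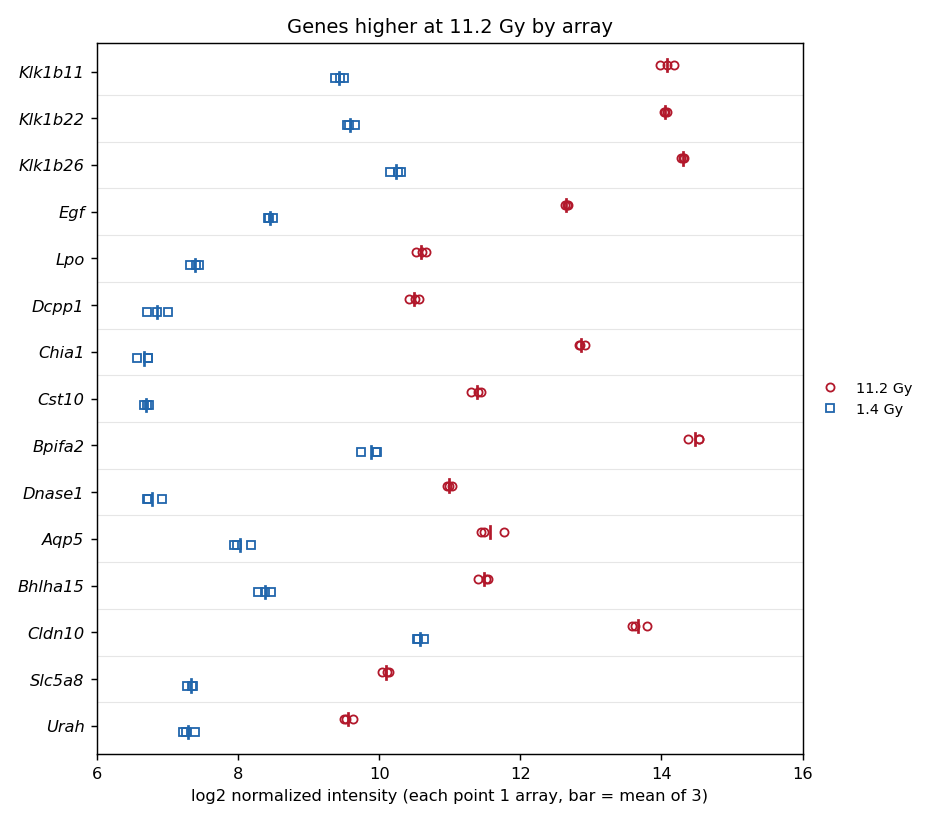
Log2 normalized intensity (horizontal axis) of 15 genes called higher at 11.2 Gy, with each array of 11.2 Gy as a circle, each array of 1.4 Gy as a square, and the mean of 3 arrays as a bar. The arrays of the groups do not overlap for any of the 15 genes, from Chia1, with means of 12.87 at 11.2 Gy and 6.67 at 1.4 Gy, to Urah, with 9.55 at 11.2 Gy and 7.29 at 1.4 Gy. For some of these genes, the lack of overlap was a condition of being named.

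Structural and transport genes of salivary acini and ducts rose with the secreted proteins. Salivary acini secrete water and salt through a chloride cotransporter, potassium channels, and a water channel, and the ducts take salt back through an epithelial sodium channel. Of 30 such genes with a probe, 24 were kept and 22 were called higher, with a median ratio of 2.35. Of the 17 detected on all 6 arrays, 16 were higher, with Sytl2, a granule protein (−0.39), the exception. The shares called higher were 8.55% over all kept probes and 7.19% over all probes detected on all 6 arrays. Aqp5, the water channel of acinar cells, had levels of 11.44, 11.49, and 11.77 at 11.2 Gy, against 7.98, 8.18, and 7.93 at 1.4 Gy (ratio 3.54 ± 0.10). Bhlha15, a transcription factor of secretory cells known as Mist1, had 11.55, 11.39, and 11.51 at 11.2 Gy, against 8.38, 8.47, and 8.28 at 1.4 Gy (ratio 3.11 ± 0.08). Cldn10, a claudin of tight junctions, had 13.63, 13.79, and 13.59 at 11.2 Gy, against 10.63, 10.53, and 10.55 at 1.4 Gy (ratio 3.10 ± 0.08). In all 3 the groups stood about 3 log2 units apart or more.

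Further members spanned the functions of this epithelium. The keratins Krt8, Krt18, Krt14, and Krt7 had ratios of 3.04, 2.81, 2.69, and 1.90, the cotransporter gene Slc12a2 one of 2.09, and Kcnn4, a calcium-activated potassium channel, one of 2.87. The sodium channel subunits Scnn1b, Scnn1g, and Scnn1a had ratios of 2.39, 1.25, and 1.02, the last 2 undetected at 1.4 Gy and at least 2.12-fold and 1.86-fold higher. Rab15, Rab27a, and Rab3d, GTPases of vesicle traffic, rose by 3.07, 2.37, and 0.88, while Rab27b, at 0.51, was not called. The summed intensity of the 24 kept genes was 52506 to 53239 at 11.2 Gy, against 9945 to 10188 at 1.4 Gy. Joint normalization and 75th-percentile scaling gave 22 calls as well, and neqc 23 higher and 1 lower.

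Genes of protein folding in the endoplasmic reticulum and of the amino acid response rose in part. The first group acts through the factors Xbp1 and Atf6 when the secretory pathway is loaded, and the second through Atf4 when amino acids are short or the endoplasmic reticulum is stressed. Of 18 kept endoplasmic reticulum genes, 8 were called higher and 0 lower (7 and 0 of the 15 detected on all 6 arrays), with a median ratio of 0.50. Of all probes detected on all 6 arrays, 7.19% were called higher and 7.32% lower. With 75th-percentile scaling, 4 were higher and 1 lower. Derl3, a derlin that helps to extract misfolded proteins, had 9.10, 9.01, and 9.15 at 11.2 Gy and an undetected 6.72, 6.86, and 6.68 at 1.4 Gy, at least a 4.16-fold rise. Herpud1, a membrane protein of the same degradation route, had 12.83, 12.71, and 12.70 at 11.2 Gy, against 11.67, 11.50, and 11.63 at 1.4 Gy (ratio 1.14 ± 0.08). Dnajc3, a co-chaperone, had 9.30, 9.21, and 9.26 at 11.2 Gy, against 8.21, 8.29, and 8.16 at 1.4 Gy (ratio 1.04 ± 0.08). The arrays did not overlap for these 3 genes. Ssr4, Xbp1, Sel1l, Creld2, and Sec61b had ratios of 0.96, 0.89, 0.75, 0.70, and 0.61. Hspa5, the chaperone BiP, had a ratio of −0.01 at a dim level of 7.19 in both groups, and Dnajb9, at −0.58, fell just short of 1.5-fold.

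Promoters of the genes called in this list were searched for 2 motifs through which they are known to respond. The endoplasmic reticulum stress response element, CCAAT and CCACG with 9 free bases between them, was present on either strand within 250 bases before the start in 3 of the 8 genes called higher, in 5 of the 9 genes not called that had a promoter entry (Calr, Hsp90b1, Hspa5, Pdia6, and Syvn1), and in 0.113% of all promoters. The shorter element II, ATTGG and CCACG with 1 free base between them, occurred in Herpud1 alone among the 8 called genes, in 0 of the 9 not called, and in 0.0304% of all promoters. No match of one element overlapped a match of the other in the stretches shown. The motif is in capitals, with 15 bases on either side, in the RefSeq sequence of GRCm38.p6 on the plus strand.
Dnajc3, chr14:118937812-118937860: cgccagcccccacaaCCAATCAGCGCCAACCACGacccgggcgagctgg
Derl3, chr10:75893227-75893275: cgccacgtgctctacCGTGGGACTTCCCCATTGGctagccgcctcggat
Creld2, chr15:88819505-88819553: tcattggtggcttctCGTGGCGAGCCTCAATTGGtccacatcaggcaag
Herpud1, chr8:94386362-94386402: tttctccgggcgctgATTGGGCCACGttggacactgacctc
In Derl3 and Creld2 the element reads on the opposite strand.

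Of 26 kept genes of the amino acid response, 7 were called higher and 0 lower (6 and 0 of the 21 detected on all 6 arrays), with a median ratio of 0.24. The share called higher among all probes detected on all 6 arrays was 7.19%. With 75th-percentile scaling, 6 were higher and 2 lower. Slc7a5, a carrier of large neutral amino acids, had levels of 9.79, 9.71, and 9.76 at 11.2 Gy, against 7.34, 7.25, and 7.22 at 1.4 Gy (ratio 2.49 ± 0.08). Aldh18a1, an enzyme of proline synthesis, had 9.26, 9.22, and 9.18 at 11.2 Gy, against 6.99, 7.15, and 6.98 at 1.4 Gy, where 1 of 3 arrays detected it (ratio 2.18 ± 0.08). Nupr1, a stress-induced nuclear protein, had 13.07, 13.07, and 13.20 at 11.2 Gy, against 10.87, 11.20, and 11.03 at 1.4 Gy (ratio 2.08 ± 0.09). Asns, asparagine synthetase, rose by 1.07 ± 0.08, with other probes at 0.97 and, not called, 0.48. Chac1, an enzyme that breaks down glutathione, the glycine carrier Slc6a9, and Nars, the asparaginyl-tRNA synthetase, had ratios of 1.20, 0.98, and 0.66. Atf4 itself (0.21), Ddit3, its target CHOP (−0.04), and Ddit4 (0.01) were not called.

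The core of the response element that Atf4 binds together with C/EBP factors, TGATGNAA on either strand, was found within 250 bases before the start in Asns, Chac1, and Nupr1, 3 of the 5 called genes with a promoter entry, in 3 of 16 genes not called, and in 3.45% of all promoters. The called genes that carry it are shown with 15 bases on either side, on the strand of the gene.
Asns, chr6:7693210-7693247, minus strand: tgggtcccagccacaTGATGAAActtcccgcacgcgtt
Chac1, chr2:119351034-119351071, plus strand: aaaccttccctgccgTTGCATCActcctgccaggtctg
Nupr1, chr7:126625558-126625595, minus strand: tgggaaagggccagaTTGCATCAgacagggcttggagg
The same letters, again as TTGCATCA, occurred in the promoter of Herpud1 of the endoplasmic reticulum list. Herpud1 was picked by name, and the motif was not counted over the other genes of that list.

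Skeletal muscle genes were also higher at 11.2 Gy, by smaller steps. Of 27 kept genes of fast fibres and of the shared contractile apparatus, 18 were called higher and 0 lower (17 and 0 of the 26 detected on all 6 arrays), where 7.19% of all such probes were higher. The median ratio was 0.75, and 26 of the 27 ratios were positive. With 75th-percentile scaling 12 were called higher (median 0.53), and with neqc 22. Ttn, the giant spring protein titin, had levels of 8.78, 8.89, and 8.71 at 11.2 Gy, against 7.57, 7.46, and 7.34 at 1.4 Gy (ratio 1.34 ± 0.08). Pvalb, the calcium buffer parvalbumin, had 11.98, 11.90, and 11.92 at 11.2 Gy, against 10.77, 10.68, and 10.72 at 1.4 Gy (ratio 1.21 ± 0.07). Tnnt3, fast troponin T, had 9.50, 9.64, and 9.71 at 11.2 Gy, against 8.33, 8.45, and 8.58 at 1.4 Gy (ratio 1.16 ± 0.09). Each array at 11.2 Gy exceeded each array at 1.4 Gy in these 3 genes. Acta1, Myh1, Atp2a1, and Ckm, skeletal actin, a fast myosin heavy chain, the calcium pump of fast fibres, and muscle creatine kinase, had ratios of 1.12, 1.11, 0.90, and 0.85. Of 6 kept genes of slow fibres, only Mb, myoglobin, was called (1.06 ± 0.08), and the median of this list was 0.08, or −0.03 with 75th-percentile scaling. Over the fast and shared genes the summed intensity was 35214 to 36301 at 11.2 Gy, against 20609 to 21404 at 1.4 Gy.

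Levels at the other doses of the same normalization set are given as a description. The comparison of 32.4 Gy with 11.2 Gy uses the same 11.2 Gy arrays as the comparison above and called 210 of the 10499 probes (2.00%), 133 higher (1.27%) and 77 lower (0.733%) at 32.4 Gy. The 0 Gy group was injected with nothing (an empty syringe). Klk1b26 had mean levels of 6.81, 10.24, 14.30, and 13.80 at 0, 1.4, 11.2, and 32.4 Gy, and Klk1b11 had 7.41, 9.44, 14.08, and 13.45. Of the 13 kallikreins, 10 were lower at 0 Gy than in either group, as were 141 of all 898 probes called higher, and 8 were called lower at 32.4 Gy than at 11.2 Gy. Chia1 had 14.93, 6.67, 12.87, and 6.66 in the same order of doses, Cst10 14.74, 6.70, 11.38, and 6.76, and Dcpp1 14.88, 6.85, 10.50, and 6.84. These parotid and demilune proteins were thus highest in the non-irradiated pool and stood at the level of undetected probes at 1.4 Gy and again at 32.4 Gy. Of the 8 parotid genes called, 7 lay higher at 0 Gy than in either group, as did 52 of the 898 probes. All 22 called genes of ducts and acini had a 0 Gy mean between the 2 groups, as did 705 of the 898 probes, for instance Aqp5 with 10.31, 8.03, 11.57, and 11.10.

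Muscle genes followed another order. All 18 called fast and shared genes were lower at 0 Gy than in either group, and 14 of them were called higher again at 32.4 Gy than at 11.2 Gy. Tnnt3 had 7.52, 8.45, 9.62, and 10.76 at the 4 doses and Mb 8.72, 8.81, 9.87, and 12.04 (32.4 Gy against 11.2 Gy, limma ratio 2.17, adjusted p = 4.50e-13). With 1 pool at each dose, a dose and the make-up of its pool cannot be told apart.

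**Figure D3:**
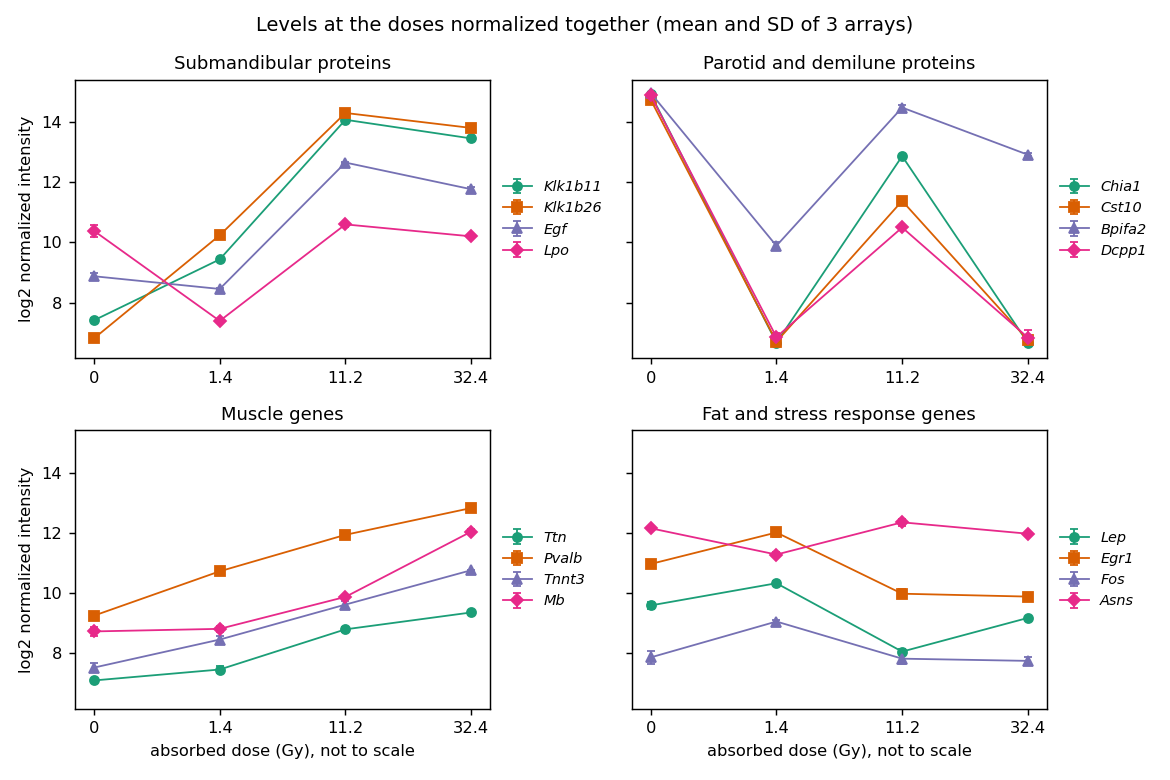
Mean log2 normalized intensity (vertical axes) of 16 genes at 0, 1.4, 11.2, and 32.4 Gy (horizontal axes, not to scale), with the SD of 3 arrays of 1 pool as error bars and lines that only join the means. Of the genes drawn, Klk1b11 and Klk1b26 are highest at 11.2 Gy (Klk1b26 6.81, 10.24, 14.30, and 13.80), parotid proteins alternate (Chia1 14.93, 6.67, 12.87, and 6.66), and muscle genes are highest at 32.4 Gy (Tnnt3 7.52, 8.45, 9.62, and 10.76).

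Genes of white adipocytes were lower at 11.2 Gy. Of 23 kept genes of lipid storage and adipokines, 12 were called lower, where 6.91% of all kept probes were, and 0 higher (11 and 0 of the 21 detected on all 6 arrays). The median ratio was −0.59, or −0.53 with undetected members at their bound, and 22 of 23 ratios were negative. With 75th-percentile scaling, 19 were called lower. Lep, the hormone leptin, had levels of 8.08, 7.96, and 8.11 at 11.2 Gy, against 10.27, 10.31, and 10.39 at 1.4 Gy (ratio −2.27 ± 0.08, SE, n = 3 arrays of 1 pool each, limma adjusted p = 9.42e-13), the largest fall of any named gene. Car3, a carbonic anhydrase abundant in adipocytes, had 12.56, 12.60, and 12.46 at 11.2 Gy, against 14.46, 14.46, and 14.42 at 1.4 Gy (ratio −1.91 ± 0.07). Agpat2, an acyltransferase of triglyceride synthesis, had 12.42, 12.46, and 12.37 at 11.2 Gy, against 13.31, 13.41, and 13.30 at 1.4 Gy (ratio −0.92 ± 0.08). The groups did not overlap in any of them. Pparg, the master regulator of adipocytes, the lipase gene Lipe, and the lipid droplet genes Plin4 and Cidec had ratios of −0.90, −0.89, −0.87, and −0.84, and Adipoq, adiponectin, one of −0.80. Gpd1 was the 1 member with a positive ratio (0.07). The summed intensity of the list was 138182 to 140711 at 11.2 Gy, against 209981 to 218850 at 1.4 Gy.

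Several of the steepest falls were of genes outside these lists. Trf, transferrin, the iron carrier of plasma, had levels of 10.116, 9.840, and 10.001 at 11.2 Gy, against 12.128, 11.987, and 12.011 at 1.4 Gy (ratio −2.06 ± 0.09). Gsn, the actin-severing protein gelsolin, had 8.40, 8.53, and 8.18 at 11.2 Gy, against 10.29, 10.30, and 10.32 at 1.4 Gy (ratio −1.93 ± 0.09). S100a8, a calcium-binding protein of neutrophils, had 7.82, 7.72, and 7.81 at 11.2 Gy, against 9.76, 9.72, and 9.64 at 1.4 Gy (ratio −1.92 ± 0.08). All 3 lay near 2 log2 units lower on every array. Cyp2e1, a cytochrome P450, and Chst1, a sulfotransferase of carbohydrates, had ratios of −1.85 and −1.84. Art3, an ADP-ribosyltransferase family member, Gpat3, an acyltransferase of glycerolipid synthesis, and Abcd2, a peroxisomal transporter of fatty acids, had −1.69, −1.67, and −1.64.

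Brown adipocyte genes did not move as a block. Elovl6, a fatty acid elongase, and Kng2, a kininogen, were called lower (−0.92 and −0.88), and Ppargc1a, a coactivator of mitochondrial genes that muscle also expresses, was called higher, with 10.50, 10.40, and 10.20 at 11.2 Gy, against 9.09, 9.28, and 9.04 at 1.4 Gy (ratio 1.23 ± 0.09). Ucp1, the uncoupling protein of brown fat, had a ratio of −0.34 at levels above 14 in both groups and was not called. The other 8 of the 12 kept genes were not called either, the median was −0.30, and 75th-percentile scaling called 5 genes lower. Over all kept probes, 8.55% were called higher and 6.91% lower.

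Mitochondrial genes had mostly negative ratios, few of them past the threshold. All 27 kept subunits of respiratory complex I had negative ratios, with a median of −0.35, but only Ndufb5, Ndufs4, and Ndufb7 were called lower (−0.77, −0.66, and −0.60), 3 of 27 beside 7.32% of all probes detected on all 6 arrays. Other probes of Ndufs4 gave −0.28, −0.37, and −0.56 and were not called. The count was 2 to 5 with 1 array left out (5 without the second 1.4 Gy array), 5 after joint normalization, 6 with neqc, and 21 with 75th-percentile scaling. Of 24 kept genes of the citric acid cycle and fatty acid oxidation, 6 were called lower and 0 higher (median −0.36), and 18 lower with 75th-percentile scaling. Acaa2, the thiolase that ends a round of fatty acid oxidation, had 11.54, 11.51, and 11.42 at 11.2 Gy, against 12.84, 12.79, and 12.69 at 1.4 Gy (ratio −1.29 ± 0.08), although 1 of its 4 probes, at −0.29, was not called. Acadl, a dehydrogenase of long-chain fatty acids, had a ratio of −0.97, and a dim probe of it one of −0.47. Etfb, Etfdh, and Etfa, which pass electrons from these dehydrogenases to the respiratory chain, had −0.69, −0.67, and −0.67, and Fh1, fumarase, −0.61. A second probe of Etfb gave −0.12. Over the complex I genes the summed intensity was 152700 to 154430 at 11.2 Gy, against 195470 to 199687 at 1.4 Gy, and so moved with that of the adipocyte list, whose part in it was not tested.

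**Figure D4:**
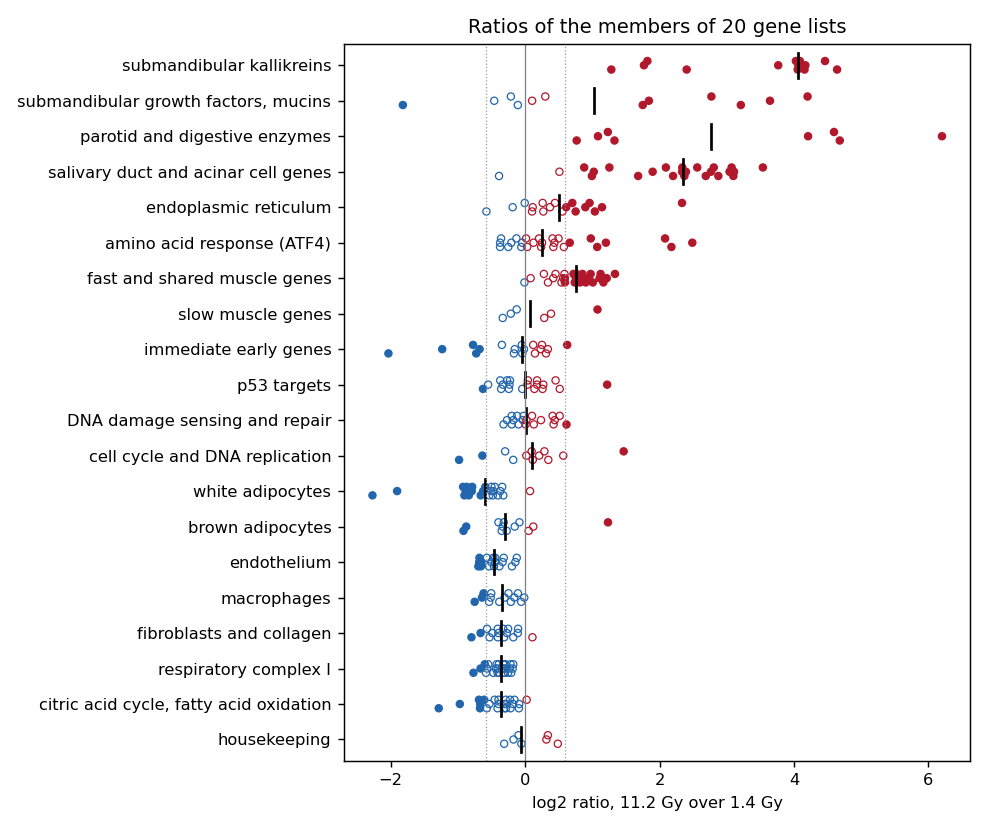
Log2 ratios of 11.2 Gy over 1.4 Gy (horizontal axis) of the kept members of 20 gene lists (rows), with called genes filled, other genes open, the list median as a black bar, and dotted lines at a 1.5-fold change. Among the salivary lists, those of kallikreins, parotid proteins, and ducts and acini lie far to the right (kallikrein median 4.05). Submandibular growth factors, mucins, and urinary proteins have ratios in both directions, with 6 genes called higher and 1 lower. Muscle and endoplasmic reticulum lists lie to the right by less (medians 0.75 and 0.50), and the fat and vessel lists to the left (−0.59 and −0.47).

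Immediate early genes, which cells switch on within minutes of growth factor or stress signals, were split. Of 18 kept genes, 5 were called lower and 1 higher (3 and 1 of the 15 detected on all 6 arrays), with a median ratio of −0.05. Among all probes detected on all 6 arrays, 7.32% were called lower and 7.19% higher. Joint normalization left 3 genes lower and 1 higher, and 75th-percentile scaling 3 lower and 0 higher. Egr1, a zinc finger transcription factor, had levels of 10.04, 10.08, and 9.81 at 11.2 Gy, against 11.91, 11.95, and 12.17 at 1.4 Gy (ratio −2.04 ± 0.09, limma adjusted p = 4.07e-11). Fos, a subunit of the AP-1 factor, had 7.94, 7.63, and 7.88 at 11.2 Gy, against 9.08, 9.08, and 9 at 1.4 Gy (ratio −1.23 ± 0.09). Egr2 had 7.23, 6.91, and 6.96 at 11.2 Gy, where 1 of 3 arrays detected it, against 7.77, 7.81, and 7.84 at 1.4 Gy (ratio −0.78 ± 0.09), and its call was lost after joint normalization (−0.55) and 75th-percentile scaling (−0.44). The 3 genes lay lower on every array at 11.2 Gy. Dusp1, a phosphatase that switches off mitogen-activated protein kinases, and Ccn1, a matrix protein also known as Cyr61, had ratios of −0.73 and −0.68. Ier3 rose by 0.62, or by 0.37 with 75th-percentile scaling, where it was not called. Jun (0.31), Junb (−0.02), and Atf3 (−0.05) were not called. Over the doses 0, 1.4, 11.2, and 32.4 Gy, Egr1 had mean levels of 10.97, 12.01, 9.98, and 9.88 and Fos 7.86, 9.05, 7.82, and 7.74, so that in both 1.4 Gy was the highest.

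Among the called genes of this list that had a promoter entry, only Dusp1 had a full cyclic AMP response element, TGACGTCA, within 250 bases before the start. It was 1 of 4 genes called lower with an entry, beside 1.55% of all promoters and 0 of 11 genes not called. The element is its own reverse complement and is shown with 15 bases on either side.
Dusp1, chr17:26508593-26508630, minus strand: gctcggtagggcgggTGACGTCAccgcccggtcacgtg

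**Figure D5:**
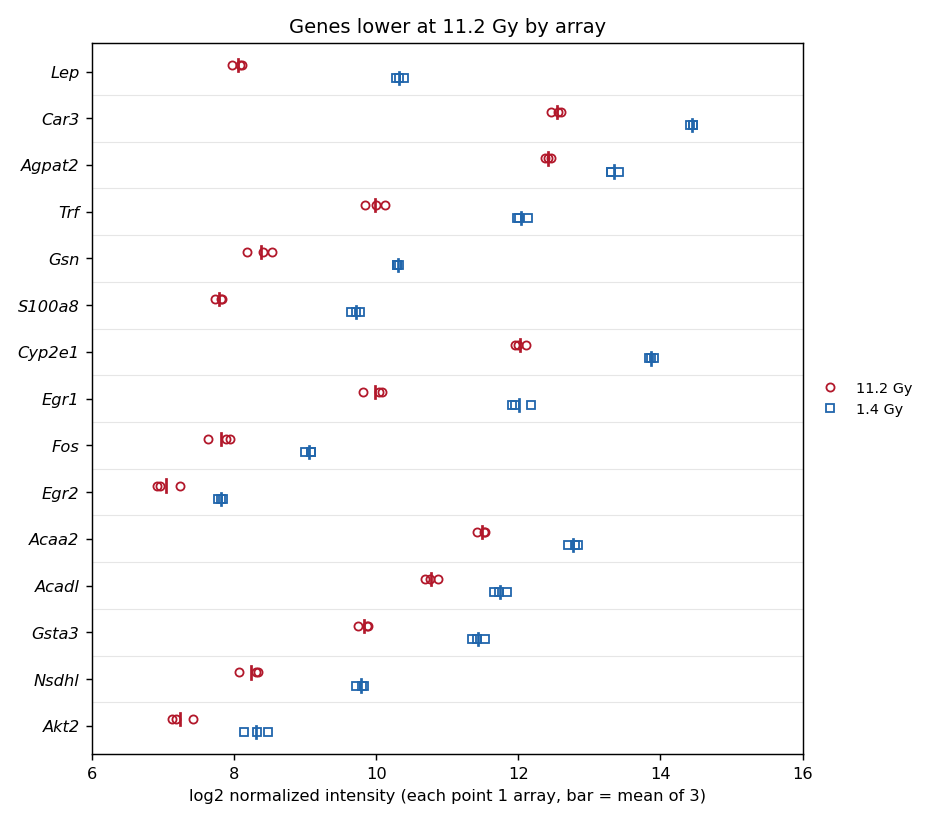
Log2 normalized intensity (horizontal axis) of 15 genes called lower at 11.2 Gy, with each array of 11.2 Gy as a circle, each array of 1.4 Gy as a square, and the mean of 3 arrays as a bar. The groups do not overlap for any of the 15 genes, and the steps run from that of Lep, with means of 8.05 at 11.2 Gy and 10.33 at 1.4 Gy, to smaller ones such as that of Egr2, with 7.03 at 11.2 Gy and 7.81 at 1.4 Gy. For some of these genes, the lack of overlap was a condition of being named.

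Genes of the p53 response, which restrain the cell cycle and start apoptosis after DNA damage, differed little as a group. Of 20 kept genes, all detected on all 6 arrays, 1 was called higher and 1 lower, beside 7.19% and 7.32% of all probes so detected. The median ratio was −0.01 (0.00 after joint normalization), with 10 ratios on each side of 0. Cdkn1a, the cell cycle inhibitor p21, had 8.81, 8.64, and 8.56 at 11.2 Gy, against 9.02, 9.10, and 9 at 1.4 Gy, a ratio of −0.37 ± 0.08 (limma adjusted p = 0.00132) that was under 1.5-fold. Mdm2, the ubiquitin ligase of p53, had 9.83, 9.55, and 9.73 at 11.2 Gy, against 9.52, 9.53, and 9.53 at 1.4 Gy (ratio 0.18 ± 0.08, limma adjusted p = 0.0813). Trp53inp1 had a ratio of 0.45 ± 0.10 by 1 probe and 0.10 by another, and neither was called. For these 3 genes the groups did not overlap, at differences that were all under 1.5-fold. Ephx1, an epoxide hydrolase, was called higher (1.22 ± 0.08) and Fas, the death receptor, lower (−0.63 ± 0.09). The call of Fas was lost without the second 11.2 Gy array (−0.55), after joint normalization (−0.53), and with 75th-percentile scaling (−0.56), while a second probe gave −0.71.

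The counts in the next 2 lists stand beside 8.55% of all kept probes called higher and 6.91% called lower. Of 19 kept genes of DNA damage sensing and repair, Lig3, a DNA ligase, was the 1 called, at 0.60 ± 0.09. It was not called without the second 11.2 Gy array (0.49) or the third 1.4 Gy array (0.58), nor after joint normalization (0.46) or 75th-percentile scaling (0.48), whereas neqc called 3 genes of the list. Of 12 kept genes of the cell cycle and DNA replication, Ccnd1, cyclin D1, was called higher, with 10.47, 10.32, and 10.22 at 11.2 Gy, against 8.92, 8.85, and 8.85 at 1.4 Gy (ratio 1.47 ± 0.08). Ccnd2, cyclin D2, was called lower (−0.98 ± 0.08), as was the kinase inhibitor Cdkn2c (−0.64 ± 0.08, −1.06 by a second probe). The 2 D cyclins thus differed in direction. The number called higher was 2 without the second 11.2 Gy or the third 1.4 Gy array and 3 with neqc. Another 12 genes of this list, out of 28 with a probe, were detected on none of the 6 arrays. The replication gene Mcm5 (0.29) was not called, nor was Mcm2, at least 1.21-fold higher at 11.2 Gy and undetected at 1.4 Gy.

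Among heat shock genes, Fkbp4, an Hsp90 co-chaperone, rose by 0.79 (0.51 with 75th-percentile scaling, not called). Cryab, alpha-B crystallin, and Hspe1, the mitochondrial Hsp10, had ratios of 0.61 and −0.60, calls that were lost without the third 1.4 Gy array (0.55 and −0.57) and, for Cryab, without the second 11.2 Gy array (0.50) or, for Hspe1, without the first (−0.53). Cryab was not called after joint normalization (0.45) or with 75th-percentile scaling (0.48) either. The other 12 of 15 kept genes were not called. For this list and those that follow, the shares over all kept probes were 8.55% called higher and 6.91% called lower. Of the clock genes, Per1, a repressor of the clock, and Nfil3, a transcriptional repressor, were called higher (0.82 and 0.77) and Rora, an orphan nuclear receptor, and Arntl, the activator Bmal1, lower (both −0.60, Arntl undetected at 11.2 Gy and at least 1.21-fold lower). Neither Rora nor Arntl was called after joint normalization (−0.53 and −0.39), without the second 11.2 Gy array (−0.54 and −0.58), or without the third 1.4 Gy array (−0.55 and −0.58). A second probe of Per1, at 0.34, was not called, and Nfil3 was not called with 75th-percentile scaling (0.53). In the insulin receptor pathway, Akt2, a kinase that conveys the insulin signal in fat and muscle, had 7.42, 7.17, and 7.13 at 11.2 Gy, against 8.48, 8.32, and 8.14 at 1.4 Gy (ratio −1.07 ± 0.10). Igf1, a growth factor, Grb10, an adaptor that restrains the receptor, and Igfbp3, a binding protein of Igf1, had called ratios of −0.88, −0.75, and −0.69, and Irs2, a substrate of the receptor, had a ratio of 0.24 and was not called. Gsta3, a glutathione transferase, was the 1 of 16 antioxidant genes called (−1.60 ± 0.08, with a dim second probe at −0.55), and Nsdhl the 1 of 14 genes of cholesterol synthesis (−1.54 ± 0.09, with 3 other probes at −1.28, −1.24, and −0.41). Both counts lie near the 6.91% of all kept probes called lower and set neither list apart. With 75th-percentile scaling, 5 antioxidant and 4 cholesterol genes were lower, and 3 cholesterol genes without the second 11.2 Gy array.

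Markers of vessels, macrophages, and connective tissue had mostly negative ratios, of which few were called, beside 7.32% called lower among all probes detected on all 6 arrays. All 18 kept endothelial genes had negative ratios (median −0.47), and 5 were called lower: Gpihbp1, which anchors lipoprotein lipase to capillaries (−0.70), Nos3, the endothelial nitric oxide synthase (−0.68), Ramp2, a receptor partner (−0.68), Egfl7 (−0.66), and the receptor Tek (−0.65). With 75th-percentile scaling 12 were called, and with neqc 10. All 14 kept macrophage genes were negative too (median −0.35), and Cd163, a haemoglobin receptor, Lyz2, lysozyme, and Mrc1, the mannose receptor, were called lower (−0.75, −0.64, and −0.62). The count was 2 to 4 with 1 array left out and 6 with 75th-percentile scaling or neqc, the call of Mrc1 was lost without the first or the second 1.4 Gy array (both −0.57), and a second probe of Lyz2, at −0.42, was not called. Of 16 kept fibroblast and collagen genes, Thbs2, a matrix protein, and Pdgfra, a growth factor receptor, were called lower (−0.80 and −0.66), against 10 genes with 75th-percentile scaling. The summed intensities of the endothelial list were 13298 to 13961 at 11.2 Gy, against 19307 to 19916 at 1.4 Gy.

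In the remaining immune and blood lists, only interferon and MHC class I genes were called lower in the main setting. Of the 16 detected on all 6 arrays, 4 were, beside 7.32% of all probes so detected. Of 18 kept genes of the interferon response and MHC class I, Gbp2, an interferon-induced GTPase, B2m, the light chain of MHC class I, Irf1, an interferon-regulated factor, and Rsad2, an antiviral enzyme, were called lower (−0.89, −0.71, −0.68, and −0.63), and none was called higher. A second probe each of Gbp2 (−0.40) and B2m (−0.56) and other probes of Irf1 (−0.33 and −0.48) were not called. All 5 kept MHC class II genes and all 4 kept erythrocyte genes were below 0 (medians −0.16 and −0.36) and none was called by limma, although 75th-percentile scaling called 2 of the erythrocyte genes lower. No T cell gene of 11 with a probe was detected on any of the 6 arrays. Cd27, a receptor of lymphocytes and the 1 B cell gene kept, rose by 0.72 (0.49 after joint normalization and 0.55 with 75th-percentile scaling, not called). The cartilage genes Sox9, a transcription factor that many epithelia also express, and Chad, a matrix protein, were undetected at 1.4 Gy and at least 2.23-fold and 1.28-fold higher at 11.2 Gy, with Chad not called after joint normalization (0.52). Pmp22, a myelin protein, had a called ratio of −0.77.

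Of the genes commonly used as references, 0 of 7 kept were called by their given probes. Gapdh had levels of 13.31, 13.39, and 13.36 at 11.2 Gy, against 13.46, 13.59, and 13.54 at 1.4 Gy (ratio −0.17 ± 0.08). Actb, beta-actin, had 13.09, 13.17, and 13.09 at 11.2 Gy, against 12.64, 12.53, and 12.72 at 1.4 Gy (ratio 0.49 ± 0.08). Its 4 other probes gave 1.19, 1.18, 0.16, and −0.42, of which the first 2 were called, so that probes of 1 mRNA differed in sign.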

How the data were processed

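Thyroid RNA pools of 6 groups were run on 18 Illumina MouseRef-8 arrays. The authors scanned with BeadScan 3.5.31.17122 and applied quantile normalization in the BioArray Software Environment. The deposited tables give linear fluorescence intensity, raw and normalized, and for each value a deposited detection p-value. Whether background was subtracted is not given in the sources used here. In the deposited normalized intensity, all 12 arrays of 0, 1.4, 11.2, and 32.4 Gy have the same distribution and the remaining 6 have another one, so 2 sets had been normalized apart. The groups compared belong to the same set. The deposited series table held the same values (largest difference 0).

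Here, log2 of the normalized intensity was fitted in limma 3.58.1 (R 4.3.3; lmFit and eBayes, two-sided) over the 3 arrays of 11.2 Gy and the 3 of 1.4 Gy, with Benjamini-Hochberg adjustment over the 10499 probes kept. Every adjusted p in the text is limma's, and SE is its moderated standard error. The methods' thresholds of 0.01 and 1.5-fold were used. The ratio of 32.4 Gy to 11.2 Gy came from a fit of the 9 arrays of 1.4, 11.2, and 32.4 Gy. The number of arrays, 3 of 1 RNA pool per group, limits the precision. For probes detected on no array of a group, bounds were computed from normalized log2 values. The 815 control probes were left out, and 23978 probes have 1 gene symbol in the platform annotation and 1719 none; 102 called probes are among the latter. For a gene with several kept probes, the brightest over the 6 arrays is given. Summed intensities run over the kept members of a list. Named were 12 genes in each direction, the 3 largest called in each direction per list, and a set fixed by name. The 12 had the largest ratios among called genes whose arrays did not overlap between the groups. For them the lack of overlap was thus a condition of being named and not a result. Other members were named from their lists after their values were seen. Members, lists, and tests were chosen with earlier results of these data known. The fit was tested on simulated data with 50 changed probes per size among 10499: limma called 2 probes changed 1.3-fold with their true sign, 14 at 1.5-fold, 47 at 2-fold, and 50 at 4-fold, and 0 unchanged probes. The simulated noise was independent, with the spread between arrays of a pool, and fewer probes were changed than were called in the data. It therefore gives no rate of false calls between pools. Promoter sequences are from RefSeq (GRCm38.p6), and only the 250 bases before the start were searched. Alternatives were joint quantile normalization of all 18 arrays, neqc, 75th-percentile scaling, other filters, other samples in the fit, an intensity trend, the replicate number as a block, other fold thresholds, and leaving out each array. Python 3.11.15 and matplotlib 3.10.9 served for the figures.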

Additional observations from a re-analysis of the deposited data

How the results depend on the processing

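The 1623 calls between 11.2 Gy and 1.4 Gy (898 higher, 725 lower) became 2820 (1325 and 1495) with neqc, 2008 (613 and 1395) with 75th-percentile scaling, and 1357 (761 and 596) after joint normalization, which shared 1620, 1199, and 1277 probes with them. With no fold threshold the counts were 4558 (1896 and 2662) and with a 2-fold threshold 566 (437 and 129). Requiring detection on all 6 arrays gave 1290 (639 and 651), and no filter 1623 (899 and 724). Leaving out 1 array gave 1631 to 1685 calls, 902 to 928 higher and 722 to 758 lower. The 18-array fit, the 9-array fit, the intensity trend, and the series table gave 1623 each. These settings, and the replicate block below, leave the ratios unchanged, so that their equal counts say little about stability.

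The replicate block gave 1623 calls as well (898 and 725). Deviations of arrays with the same replicate number correlated at 0.091, 0.036, and 0.066, so the numbers were not taken to pair arrays, although each array correlated best with its own number. The block changed no call of a named gene. A slide block was not run, since the files' headers give no slide.

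Of 96 named genes, 12 changed their call under an alternative other than leaving out an array and 9 when an array was left out, each time losing the call. No named gene that was called in the main setting turned its direction under these alternatives. For named genes that were not called, a turn of direction was not counted. Calls were lost without the first 11.2 Gy array for Hspe1 (−0.53), Arntl (−0.57), and Ndufb7 (−0.54), without the second for Cryab (0.50), Fas (−0.55), Lig3 (0.49), Rora (−0.54), Arntl (−0.58), and Ndufb7 (−0.58), without the first or second 1.4 Gy array for Mrc1 (−0.57 each) and without the second for Tshr (−0.57), and without the third for Cryab (0.55), Hspe1 (−0.57), Lig3 (0.58), Rora (−0.55), Arntl (−0.58), and Ndufb7 (−0.58). Probes near background limit the precision of the bounds.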
